A study of Mus musculus with 16 samples.

Results

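Cytochrome P450 genes were examined in the cortex of 5xFAD mice given rapamycin or vehicle diet. The genes were taken from the table of read pair counts as every name made of Cyp, a family number, a subfamily letter and a gene number, leaving out Cyp51 and the pseudogenes, that had 10 or more counts in at least 4 of the 16 libraries. This gave 26 genes of the 100 P450 names found, in a table of 47593 genes. All 26 were tested. They code for 25 enzymes and 1 RNA, Cyp4x1os, which is read from the strand opposite Cyp4x1.

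The 16 libraries came from heterozygous 5xFAD mice on a C57BL/6-SJL background, with 4 libraries for each sex and diet. All the mice, controls included, carried human APP with the Swedish, Florida and London mutations, driven by the Thy-1 promoter in neurons, so no group was free of amyloid. From 2 to 5 months of age they ate a diet with 14 ppm of active rapamycin in microcapsules, or the capsule carrier alone. The labels count 4 biological replicates per group, whereas the study's text speaks of cortices pooled for sequencing, and where libraries came from pools the p-values measure the spread between pools.

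P450 enzymes are haem proteins that insert an oxygen atom into lipids, steroids, vitamins and drugs, and take electrons from P450 reductase in the endoplasmic reticulum or from ferredoxin in mitochondria. The liver holds most of the drug-oxidising ones. In the brain the best known is Cyp46a1, which neurons use to turn cholesterol into 24-hydroxycholesterol, the form in which cholesterol leaves the brain, and others make or break down signalling oxides of arachidonic acid, neurosteroids and retinoic acid.

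Libraries held 16393501 to 20593089 read pairs. Levels are given as CPM, the counts scaled to a common library size, and between genes as CPM per kilobase of exon. In these bulk samples fewer cells of a type and less RNA per cell cannot be told apart. The library labelled male rapamycin 4 went against its label, with 9935 counts of Xist and 0 counts summed over 4 genes of the Y chromosome, against 1 to 17 and 1915 to 2231 counts in the remaining 7 male libraries. Male vehicle 4 stood apart by choroid plexus transcripts, whose 8 markers summed to 1956 CPM there and to between 14.5 and 331 CPM in the other vehicle libraries. Of 6 hepatocyte markers the highest was Cps1, a urea cycle enzyme, at up to 0.978 CPM, and Alb, the main plasma protein, reached at most 0.450 CPM. By the labels 11 libraries were in batch 1 and 5 in batch 2. The mitochondrial share of read pairs was 2.64% to 5.47% under vehicle and 3.75% to 6.99% under rapamycin, and the slope of a library's deviation in log2 CPM on log2 exon length was 0.00040 to 0.10 under vehicle and −0.13 to 0.06 under rapamycin.

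Cyp46a1 made up most of the signal summed over the 26 genes. Cyp46a1 had 118 ± 14.7 CPM per kilobase (SD, n = 16), and its share of the level summed over the 26 genes had a median of 64.3%, with a range of 52.9% to 69.4%. Cyp51, left out by the naming rule, is not in that sum. It had a median of 77.6 CPM, where Cyp46a1 had 247 and Cyp2d22 had 31.6. The next highest of the 26 genes were Cyp2d22 with 11.6 ± 2.30 CPM per kilobase, Cyp2j9 with 7.54 ± 1.81, Cyp4f15 with 6.92 ± 1.75 and Cyp2j6 with 5.85 ± 0.946 (SD, n = 16). Cyp2d22 is the mouse gene closest to the human drug-oxidising CYP2D6. Cyp2j9 and Cyp2j6 are enzymes that oxidise arachidonic acid, and Cyp4f15 is a fatty acid ω-hydroxylase. The ranges of these 4 genes over the libraries overlapped with one another, and that of Cyp46a1 overlapped with none. At the low end Cyp4b1, Cyp3a13 and Cyp2r1 had means of 0.237, 0.246 and 0.298 CPM per kilobase, with 2 to 32 counts in a library, so that their fold changes are imprecise.

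**Figure D1:**
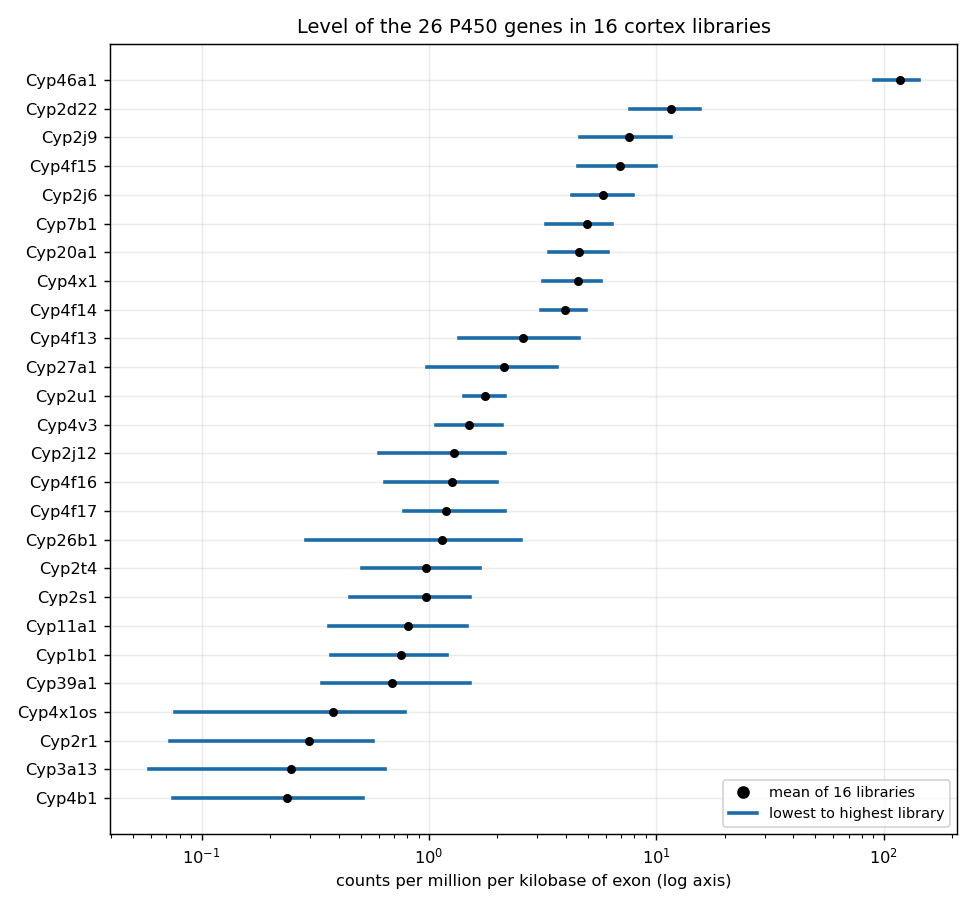
Level of each of the 26 P450 genes in CPM per kilobase of exon, on a log axis, with the mean of 16 libraries as a point and the lowest to highest library as a line. Cyp46a1, at a mean of 118, stands apart from the other 25 genes, the highest of which has a mean of 11.6.

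Rapamycin was compared with vehicle in both sexes together to ask which of these enzymes the diet moved. Cyp4f15, Cyp2d22 and Cyp2j9 rose and the retinoic acid hydroxylase Cyp26b1 fell. Cyp4f15 rose 1.54-fold, Cyp2d22 1.39-fold and Cyp2j9 1.33-fold, and Cyp26b1 fell to 0.506 times its vehicle level. These 4 of 26 genes passed an adjusted p of 0.05, which is 15.4% of the genes against 13.3% of the 16553 genes tested, with 3 genes higher and 1 lower where 6.46% of all genes were higher and 6.86% lower. An unadjusted p under 0.05 was found for 8 of 26 genes and for 30.4% of all genes. Of the 4, Cyp4f15 and Cyp2d22 passed in all 16 fits that left out 1 library, Cyp2j9 in 4 and Cyp26b1 in 6. Cyp4f15 and Cyp26b1 also reached a fold change of 1.5 and so were DEGs, 2 of 26 genes where 2.26% of all genes were DEGs. The share that passed among P450 genes was thus near that of all genes. DESeq2 gave an adjusted p for 23 of the 26 genes and called 5, the same 4 genes and Cyp2j6, where it called 20.2% of all genes. The median log2 fold change was 0.15 over the 26 genes and 0.02 over all genes tested, and 19 of 26 had a positive log2 fold change, as had 52.3% of all genes.

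Cyp4f15 showed the clearest separation. This gene lies at chr17:32685627-32703352 on the plus strand of GRCm38, and its enzyme hydroxylates the tail of fatty acids and of leukotriene B4. It measured 13.5, 10.3, 11.9 and 13.5 CPM in female vehicle and 13.1, 12.3, 14.1 and 11.4 CPM in male vehicle. It measured 22.7, 17.9, 17.6 and 19.3 CPM in female rapamycin and 21.3, 22.4, 15.9 and 15.6 CPM in male rapamycin. Every rapamycin library was above every vehicle library, which held for 2 of the 26 genes in the upward direction and for 0.127% of all genes. The log2 fold change was 0.62 ± 0.10 (SE), with an adjusted p of 0.00879 (edgeR). It was 0.68 in batch 1 alone with an adjusted p of 0.0344, and 0.46 in batch 2 alone, which held 2 vehicle and 3 rapamycin libraries, with an adjusted p of 0.667.

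Cyp2d22 was the other gene without overlap. It lies at chr15:82370528-82380260 on the minus strand. It measured 21.2, 25.6, 22.9 and 27.6 CPM in female vehicle and 30.0, 26.3, 30.3 and 30.6 CPM in male vehicle. Under rapamycin it measured 32.7, 43.2, 39.3 and 36.9 CPM in females and 35.1, 36.2, 38.1 and 38.2 CPM in males. Again the lowest rapamycin value was above the highest vehicle value. The log2 fold change was 0.48 ± 0.08 (SE), with an adjusted p of 0.00879, and it was 0.51 and 0.41 within batches 1 and 2, with adjusted p of 0.0344 and 0.667. Of its 75-base stretches 1.51% also occur in other genes, so neighbouring Cyp2d genes could take few of its reads.

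Cyp2j9 rose less evenly. It lies at chr4:96568429-96591578 on the minus strand, and its enzyme oxidises arachidonic acid. Female vehicle libraries held 19.9, 22.4, 21.2 and 19.5 CPM and female rapamycin libraries 24.9, 22.9, 28.2 and 25.9 CPM. Male vehicle libraries held 23.5, 21.6, 30.7 and 15.4 CPM and male rapamycin libraries 38.6, 22.5, 32.0 and 33.7 CPM. Female groups did not overlap, while the male groups did, with male vehicle 1 and 3 above male rapamycin 2. The log2 fold change was 0.41 ± 0.13 (SE), with an adjusted p of 0.0415. It was 0.29 with an adjusted p of 0.117 when the libraries labelled male rapamycin 4 and male vehicle 4 were both left out. Within batches 1 and 2 it was 0.24 and 0.76, with adjusted p of 0.241 and 0.667.

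Cyp26b1 fell. It lies at chr6:84571414-84593908 on the minus strand, and its enzyme clears retinoic acid from tissue. It measured 11.5, 6.73, 8.54 and 13.6 CPM in female vehicle and 6.43, 1.58, 4.87 and 6.38 CPM in female rapamycin. In males it measured 2.56, 6.36, 10.3 and 4.86 CPM under vehicle and 3.61, 1.54, 4.89 and 3.55 CPM under rapamycin. The female groups did not overlap and the male groups did, since male vehicle 1 was lower than 3 of the 4 male rapamycin libraries. The lowest values were in female rapamycin 2 and male rapamycin 2. These libraries had the highest mitochondrial shares, 6.98% and 6.99%, and the lowest slopes on exon length, −0.127 and −0.122. Female rapamycin 1, at 6.88% and −0.121, measured 6.43 CPM. The part of these library traits in the Cyp26b1 values was not tested. The log2 fold change was −0.98 ± 0.30 (SE), with an adjusted p of 0.0392. Without the library labelled male rapamycin 4 it was −0.98 with an adjusted p of 0.0566. Within batches 1 and 2 it was −1.03 and −0.94, with adjusted p of 0.111 and 0.667.

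**Figure D2:**
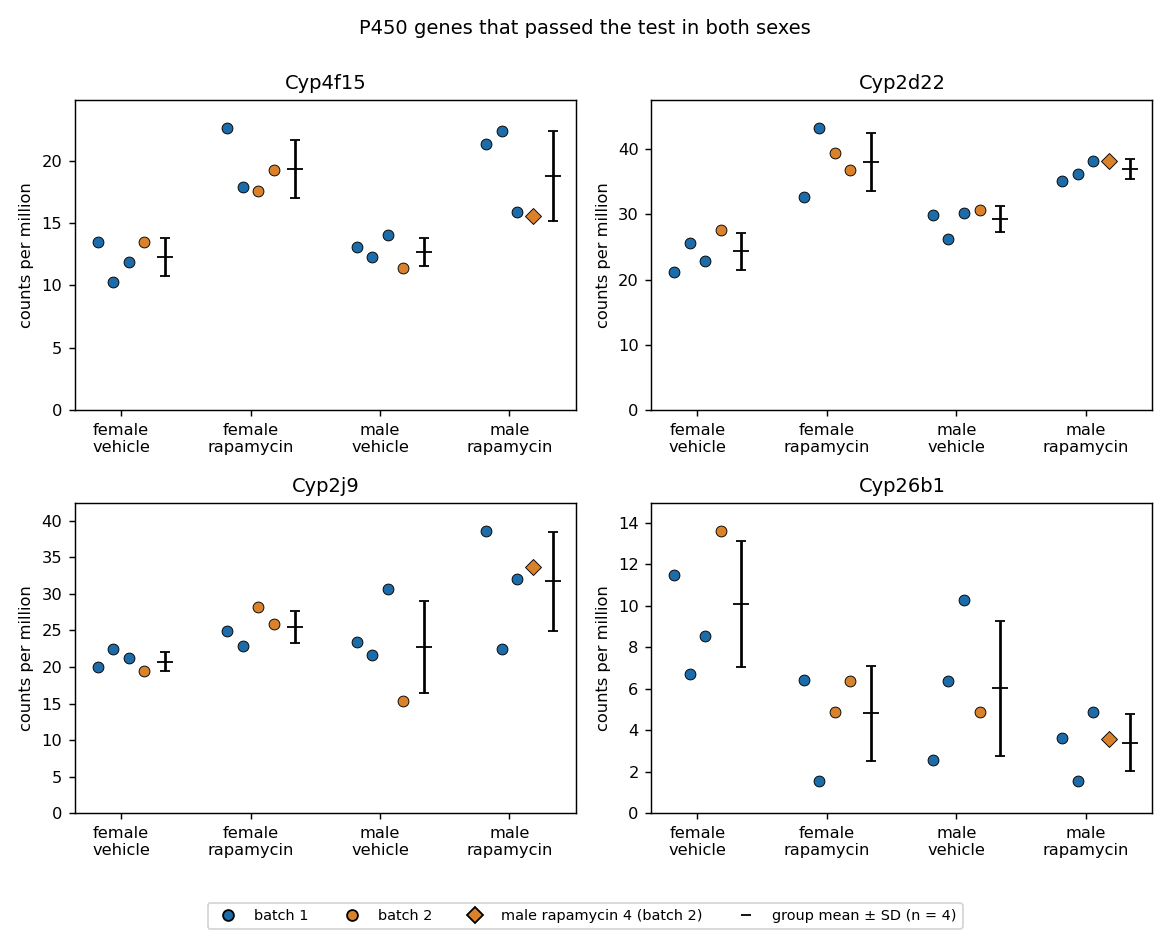
CPM of the 4 P450 genes that passed the test of both sexes together, by group. There is 1 point per library coloured by batch, with the library labelled male rapamycin 4 as a diamond. The group mean with its SD (n = 4) is at the right of each group. Rapamycin points lie above all vehicle points for Cyp4f15 and Cyp2d22, while those of Cyp2j9 and Cyp26b1 overlap in males.

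Each of the 4 calls was lost when the mitochondrial share or, in another fit, the slope on exon length was added as a term, and 0 genes of the whole table passed in either fit. With the slope, the log2 fold change of Cyp4f15 was 0.50 and its adjusted p 0.739, and with the mitochondrial share these were 0.49 and 0.537. Cyp2d22 kept a log2 fold change of 0.42 and 0.45 under these fits, and Cyp2j9 had 0.65 and 0.61. Cyp26b1 moved further, to −0.52 with the slope and −0.39 with the mitochondrial share.

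Markers of other cell types were read beside these genes, in the fit of both sexes together, where 13.3% of all genes passed. Of 8 astrocyte markers, Aldoc, a glycolytic enzyme, rose by a log2 fold change of 0.40 with an adjusted p of 0.0104, 0 fell, and the median of the list was 0.25, with 5 of 8 positive. Gfap, the filament protein of reactive astrocytes, had −0.42 (adjusted p 0.206), Aqp4 −0.23 and Slc1a2 −0.07. Summed over the list, astrocyte markers reached 4653 to 6712 CPM under vehicle and 4305 to 7221 CPM under rapamycin. Of 8 endothelial markers Ly6c1 rose and Kdr fell. Of 8 oligodendrocyte markers 0 passed, 7 were positive and their median was 0.17, and their sum was 3771 to 6125 CPM under vehicle and 3752 to 9777 CPM under rapamycin, highest in female rapamycin 2. Of 8 choroid plexus markers Aqp1 and Sostdc1 fell, with a median of −1.73. No marker passed of those for mural cells, meningeal fibroblasts, microglia, neurons, blood and hepatocytes. The part of these cell types in the P450 values was not tested.

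The promoters of the genes that passed are shown to let their base composition and short motifs be compared with Cyp46a1, the most abundant. RefSeq promoters on GRCm38.p6 were at hand for 20 of the 26 genes, Cyp2d22 not among them. For 13 of the 20, and for 2 of the 4 printed, the bases just after the start site were found in a GENCODE transcript. Each sequence is the 250 bases before the RefSeq start site, 5′ to 3′ on the strand of the gene. That site lies 32, 93 and 98 bases inside the counted gene for Cyp4f15, Cyp2j9 and Cyp26b1. The last bases of those stretches are thus part of the gene as counted. For Cyp46a1 the site lies 61 bases before the counted gene. Capitals mark matches on either strand to TATAAA (the TATA box), GGGCGG (the GC box bound by Sp factors), AGGTCA (the core bound by nuclear receptors), GCGTG (the core bound by the aryl hydrocarbon receptor) and AGAACA (the core bound by the glucocorticoid receptor).
Cyp4f15, chr17:32685409-32685658, plus strand: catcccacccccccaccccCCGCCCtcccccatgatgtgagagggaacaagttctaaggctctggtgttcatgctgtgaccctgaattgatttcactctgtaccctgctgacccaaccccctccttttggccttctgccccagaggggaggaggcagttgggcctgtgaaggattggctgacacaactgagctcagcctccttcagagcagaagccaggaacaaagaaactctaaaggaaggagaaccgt
Cyp2j9, chr4:96591486-96591735, minus strand: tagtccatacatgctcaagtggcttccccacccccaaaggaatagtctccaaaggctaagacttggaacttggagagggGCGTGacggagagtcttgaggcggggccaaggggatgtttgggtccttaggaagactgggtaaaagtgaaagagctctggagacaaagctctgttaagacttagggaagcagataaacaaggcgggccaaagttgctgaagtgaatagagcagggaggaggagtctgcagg
Cyp26b1, chr6:84593811-84594060, minus strand: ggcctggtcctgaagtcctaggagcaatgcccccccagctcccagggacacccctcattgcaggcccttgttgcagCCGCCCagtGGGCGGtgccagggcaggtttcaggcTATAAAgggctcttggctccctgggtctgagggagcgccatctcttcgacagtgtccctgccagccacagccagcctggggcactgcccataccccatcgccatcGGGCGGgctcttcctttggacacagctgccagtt
Cyp46a1, chr12:108334066-108334315, plus strand: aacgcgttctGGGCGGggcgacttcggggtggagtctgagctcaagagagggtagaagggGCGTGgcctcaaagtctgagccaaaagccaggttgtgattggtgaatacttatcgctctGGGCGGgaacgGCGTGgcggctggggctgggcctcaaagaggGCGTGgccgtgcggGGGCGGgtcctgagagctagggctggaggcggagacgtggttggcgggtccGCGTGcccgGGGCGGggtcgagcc

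The Cyp46a1 promoter was the richest in G and C of the 20, at 67.6%, and held 4 GC boxes and 4 GCGTG cores. That of Cyp26b1 was 64.8% G and C and held 3 GC boxes and the single TATAAA found among the 20. Those of Cyp4f15 and Cyp2j9 were 56.4% and 52.0% G and C and held 1 match each, a GC box and a GCGTG core. The median over the 20 genes was 56.6%, and over all 27025 promoters 52.0%. A GC box occurred in 13 of the 20 promoters and in 32.9% of all promoters, and GCGTG in 8 of 20 and in 28.2%. AGGTCA occurred in 1 of 20, that of Cyp2t4, and in 13.8% of all, AGAACA in 2 of 20 and in 16.2%, and TATAAA in 3504 of the 27025. No motif was shared by the 3 printed promoters of genes that passed.

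**Figure D3:**
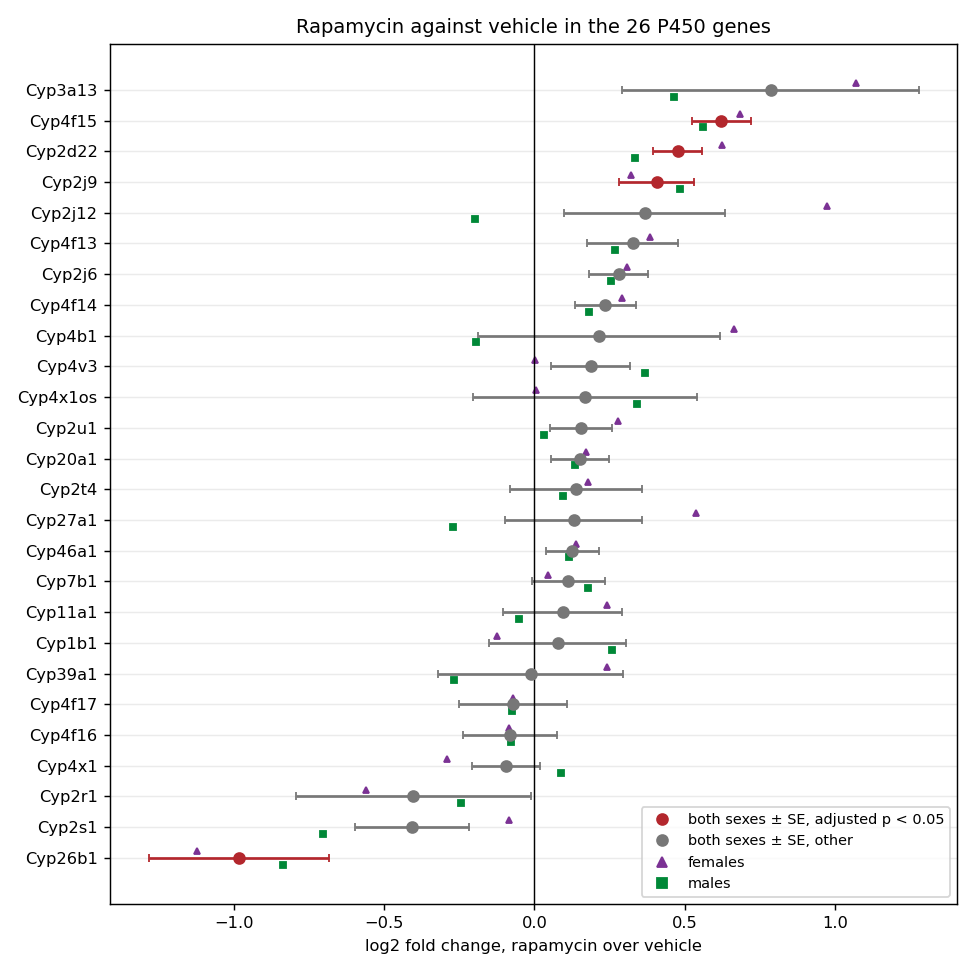
Log2 fold change of rapamycin over vehicle for the 26 P450 genes, with both sexes together as circles with the standard error (red where the adjusted p was under 0.05) and the estimates for females as triangles and males as squares. Cyp4f15, Cyp2d22 and Cyp2j9 lie right of 0 in both sexes and Cyp26b1 lies left of 0 in both, and the widest bars belong to genes with few counts.

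Among the enzymes that act on cholesterol and its oxides, none of 4 passed in the fit of both sexes together. Cyp46a1 measured 278, 233, 198 and 248 CPM in female vehicle, 302, 262, 193 and 277 CPM in female rapamycin, 239, 248, 242 and 233 CPM in male vehicle and 246, 300.0, 270.4 and 228 CPM in male rapamycin. The groups overlapped in both sexes, with the lowest and the highest library both in female rapamycin. Its log2 fold change was 0.13 ± 0.09 (SE), with an adjusted p of 0.358 and a 95% interval from −0.05 to 0.30, which leaves out a change of 1.5-fold either way. Cyp7b1, which hydroxylates 25- and 27-hydroxycholesterol and the steroid DHEA, had a log2 fold change of 0.11 ± 0.12. Its libraries ran from 7.08 to 13.8 CPM under vehicle, with a median of 10.9, and from 7.63 to 13.9 CPM under rapamycin, with a median of 10.7. Cyp27a1, the mitochondrial 27-hydroxylase of cholesterol, ran from 2.12 to 6.11 CPM under vehicle, with a median of 4.66, and from 3.03 to 7.96 CPM under rapamycin, with a median of 4.52. Cyp39a1, which acts on 24-hydroxycholesterol, ran from 1.32 to 2.83 CPM under vehicle, with a median of 2.18, and from 1.03 to 4.62 CPM under rapamycin, with a median of 1.48. The 2 highest Cyp39a1 values, 4.62 and 3.79 CPM, were those of female rapamycin 2 and male rapamycin 2. The log2 fold changes of Cyp27a1 and Cyp39a1, 0.13 ± 0.23 and −0.01 ± 0.31, did not pass.

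Cyp11a1, the mitochondrial enzyme that cuts the side chain of cholesterol to make pregnenolone, ran from 1.74 to 5.35 CPM under vehicle, with a median of 3.42, and from 2.35 to 7.05 CPM under rapamycin, with a median of 3.69. Its log2 fold change was 0.09 ± 0.20. Cyp2r1, a 25-hydroxylase of vitamin D, had −0.40 ± 0.39 on 2 to 17 counts per library.

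Among the fatty acid enzymes of family 2, Cyp2j6 came nearest to the threshold after Cyp2j9, with a log2 fold change of 0.28 ± 0.10 and an adjusted p of 0.0645. It passed in DESeq2, with an adjusted p of 0.0384, and under upper quartile factors, with 0.0434, in which case 5 of the 26 genes and 14.8% of all genes passed. Cyp2j12 had 0.37 ± 0.27 and Cyp2u1, a hydroxylase of long-chain fatty acids, 0.15 ± 0.10. Of the 8 family 4 enzymes, Cyp4f15 alone passed. Cyp4f13 had 0.33 ± 0.15 and Cyp4f14, an ω-hydroxylase like Cyp4f15, had 0.24 ± 0.10, with adjusted p of 0.151 and 0.124, while Cyp4f16 had −0.08 ± 0.16 and Cyp4f17 had −0.07 ± 0.18. The 5 Cyp4f genes share few reads. At most 0.865% of the 75-base stretches of Cyp4f13, Cyp4f14, Cyp4f15 and Cyp4f17 occur in another gene, but 10.1% of those of Cyp4f16 do, mostly in Cyp4f37. Cyp4v3 had 0.19 ± 0.13, Cyp4b1 0.22 ± 0.40, and Cyp4x1, a brain enzyme that oxidises the cannabinoid anandamide, −0.10 ± 0.11. Cyp4x1os overlaps Cyp4x1 by 450 exon bases, which is 22.5% of its own exons. Counting took no account of strand and left out pairs with several genes, so pairs that met both counted for neither. Cyp4x1os had 0.17 ± 0.37.

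Of the enzymes of foreign compounds other than Cyp2d22, none passed. Cyp1b1, a target of the aryl hydrocarbon receptor, had 0.08 ± 0.23 and Cyp2s1 −0.41 ± 0.19, with an adjusted p of 0.157. Cyp3a13 had the largest positive log2 fold change of the 26, 0.79 ± 0.49, with an adjusted p of 0.299 on 3 to 32 counts per library. It passed in batch 1 alone, with a log2 fold change of 1.72 and an adjusted p of 0.0456, and had −0.83 in batch 2 alone, with 0.792. Cyp20a1 and Cyp2t4, whose substrates are little known, had 0.15 ± 0.10 and 0.14 ± 0.22.

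Summed per kilobase, the 26 genes reached 152 to 189 CPM under vehicle and 172 to 215 CPM under rapamycin, which overlapped. Without Cyp46a1 the other 25 genes summed to 57.8 to 66.8 CPM per kilobase under vehicle and 69.6 to 81.0 under rapamycin, without overlap. The sum of Cyp2d22, Cyp2j9 and Cyp4f15 alone ran from 19.5 to 26.3 under vehicle and from 29.2 to 33.6 under rapamycin. These 3 genes were picked for having passed with a higher level, so the shift of their sum follows from that choice. The sum of the 25 genes holds them too. When Cyp46a1 and the 4 genes that passed were left out, the remaining 21 genes summed to 36.1 to 41.5 and 38.4 to 49.7 CPM per kilobase, which overlapped. These sums are given with no test.

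The sexes were then taken apart, since the study set out to compare them. In females 0 of 26 genes passed in edgeR, where 0.0121% of all genes did, 5 had an unadjusted p under 0.05 against 23.1% of all genes, and DESeq2 called 3 of the 22 genes to which it gave an adjusted p, Cyp4f15, Cyp2d22 and Cyp2j12, where it called 10.4% of all genes. Cyp2d22 had a log2 fold change of 0.62 ± 0.11 and Cyp4f15 of 0.68 ± 0.14, both with an adjusted p of 0.0572. In males 0 of 26 genes and 0% of all genes passed in edgeR, 4 had an unadjusted p under 0.05 against 12% of all genes, and DESeq2 called 0 of 22 genes and 0.126% of all genes. There Cyp4f15 had 0.56 ± 0.14, Cyp2d22 0.33 ± 0.11, Cyp2j9 0.49 ± 0.18 and Cyp2s1 −0.70 ± 0.25, each with an adjusted p of 0.363. Without the library labelled male rapamycin 4 the male values were 0.63, 0.34, 0.41 and −0.84, and in females, whose libraries stayed as they were, Cyp2d22 and Cyp4f15 then passed, with adjusted p of 0.0371 and 0.0387, as did 2.07% of all genes. Oligodendrocyte markers were positive for 8 of 8 genes in females, with a median log2 fold change of 0.44, and for 3 of 8 in males, with a median of −0.04, and 0 passed in either sex. They summed to 3771 to 6125 CPM in female vehicle and 4320 to 9777 CPM in female rapamycin, and their part in the P450 values was not tested.

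Groups of 4 were fully separate for 6 of the 26 genes in females, where 5.78% of all genes were. These were Cyp4f15, Cyp2d22, Cyp2j9, Cyp2j6 and Cyp4f14, higher under rapamycin, and Cyp26b1, lower. In males they were separate for 3 genes, Cyp4f15 and Cyp2d22, higher, and Cyp2s1, lower, where 6.13% of all genes were. Cyp4f15 and Cyp2d22 were in both sets, and the share of all genes separate in both sexes was not counted.

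The difference between the sexes in their response was tested directly, and 0 of 26 genes passed the interaction of sex and treatment in edgeR, as did 0% of all genes. DESeq2 called 0, and 1 gene, Cyp2j12, had an unadjusted p under 0.05, against 2.17% of all genes. For Cyp4f15 the female response was greater by 0.12 on the log2 scale, with a 95% interval from −0.28 to 0.52. For Cyp2d22 it was greater by 0.29, from −0.0045 to 0.58, and for Cyp26b1 the difference was −0.29, from −1.48 to 0.90. These values count the library labelled male rapamycin 4, which went against its label, as male. Without that library 0 of 26 genes and 0% of all genes passed the interaction in edgeR.

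Cyp2j12 had the smallest unadjusted p of the 26 genes for the interaction. It measured 1.17, 2.38, 1.90 and 1.20 CPM in female vehicle and 3.42, 3.05, 4.20 and 2.21 CPM in female rapamycin. In males it measured 3.03, 2.65, 3.00 and 2.40 CPM under vehicle and 1.26, 3.56, 1.87 and 2.93 CPM under rapamycin. The male rapamycin libraries, the last of which went against its label, lay on both sides of the vehicle libraries. The interaction was 1.17 ± 0.46 on the log2 scale (SE), with an unadjusted p of 0.0208 and an adjusted p of 0.999, so this difference did not hold up against the number of genes tested.

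Cyp2s1 was the gene that differed most between the sexes under vehicle. It measured 4.20, 5.26, 3.05 and 3.31 CPM in female vehicle and 6.30, 7.36, 7.49 and 7.33 CPM in male vehicle. Under rapamycin it measured 2.81, 5.11, 4.76 and 2.21 CPM in females and 3.89, 3.85, 4.53 and 5.20 CPM in males. All 4 male vehicle libraries were above each of the other 12 libraries, a pattern that was not counted over all genes. Females against males under vehicle had a log2 difference of −0.85 ± 0.25 (SE), with an unadjusted p of 0.00344 and an adjusted p of 0.999. Of the 26 genes 0 passed this comparison in edgeR and in DESeq2, where 0.0121% of all genes passed in edgeR and 0.0544% in DESeq2, and 3 had an unadjusted p under 0.05, Cyp2s1, Cyp2d22 and Cyp2j12, against 3.55% of all genes. Cyp2s1 and Cyp2j12 had separate groups, both lower in females, where 0.816% of all genes were lower without overlap. Exons of Cyp2s1 overlap those of Gm26707 on the other strand by 260 bases, or 5.27% of its exons.

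**Figure D4:**
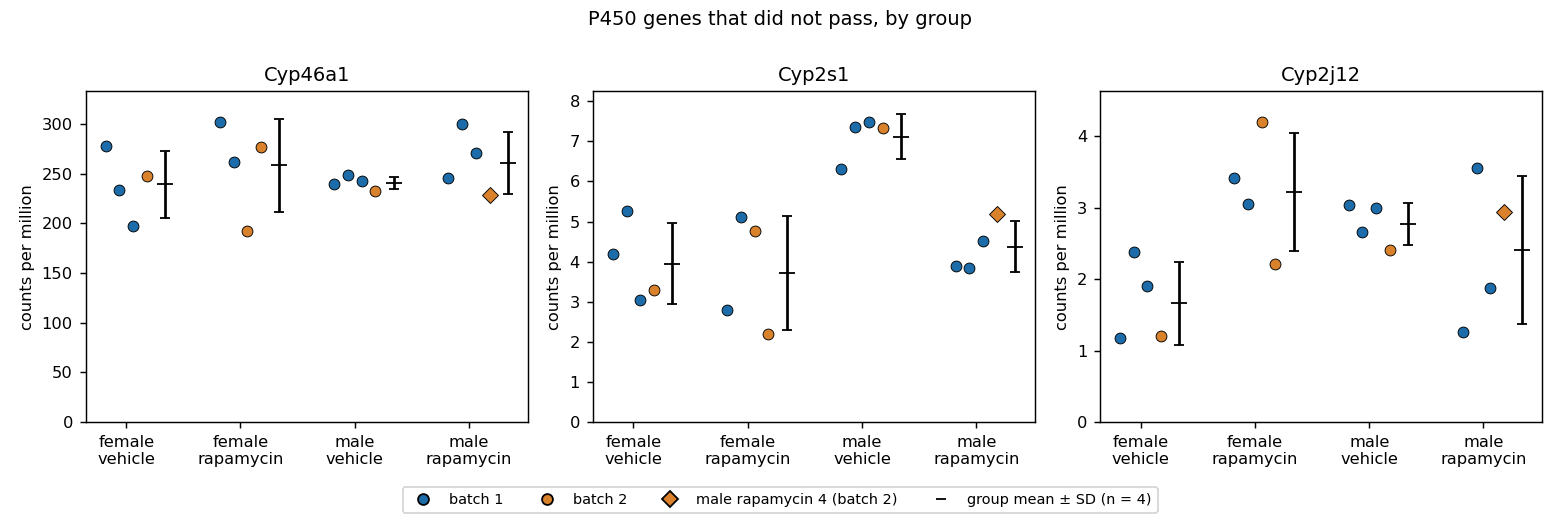
CPM of Cyp46a1, Cyp2s1 and Cyp2j12 by group, drawn as in the plot of the genes that passed. Cyp46a1 overlaps between all groups, Cyp2s1 is higher in the 4 male vehicle libraries than in the other 12, and Cyp2j12 is lower in female vehicle than in male vehicle.

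Batch, a term in the fits above, was also tested for itself. Between batches 2 and 1, 5 of 26 genes passed, or 19.2%, where 35.5% of all genes passed. Higher in batch 2 were Cyp4f16, by a log2 difference of 0.71 ± 0.17, Cyp11a1 by 0.79 ± 0.21, Cyp4f13 by 0.59 ± 0.16 and Cyp4f17 by 0.58 ± 0.19, and Cyp7b1 was lower by −0.42 ± 0.13 (SE). Their adjusted p were 0.00357, 0.00749, 0.00796, 0.0238 and 0.0207. Cyp4f16 ran from 1.94 to 4.24 CPM with a median of 3.20 in batch 1, and measured 5.71, 6.03, 4.78, 5.37 and 4.22 CPM in batch 2. Cyp11a1 ran from 1.74 to 4.93 CPM with a median of 3.25 in batch 1, and measured 5.35, 6.75, 3.80, 4.14 and 7.05 CPM in batch 2. Cyp4f13 ran from 4.52 to 10.1 CPM with a median of 6.46 in batch 1, and measured 10.9, 15.2, 8.64, 10.6 and 11.7 CPM in batch 2. Cyp4f17 ran from 1.31 to 2.25 CPM with a median of 1.71 in batch 1, and measured 2.22, 3.65, 2.06, 2.85 and 2.21 CPM in batch 2. Cyp7b1 ran from 7.08 to 13.9 CPM with a median of 11.9 in batch 1, and measured 8.12, 7.63, 10.6, 8.39 and 9.58 CPM in batch 2. All 5 genes overlapped between the batches, where 7.21% of all genes did not. None of the 4 genes that passed for the diet was among them.

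**Figure D5:**
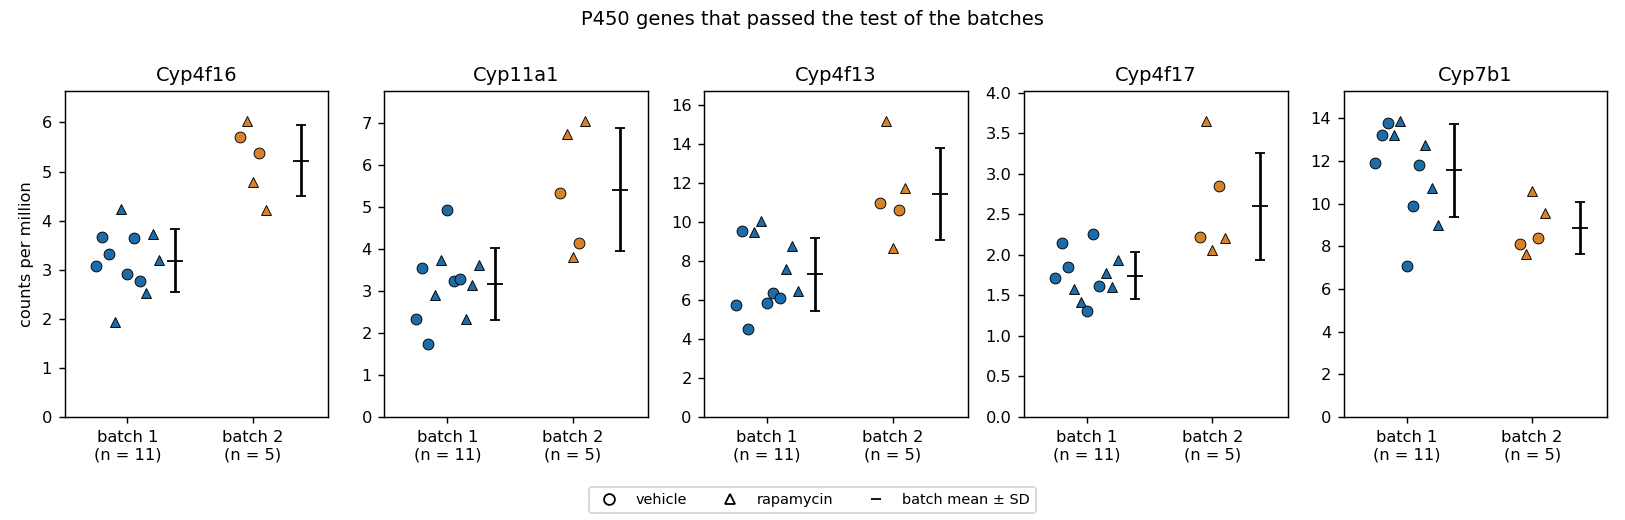
CPM of the 5 P450 genes that passed the test of the batches, with vehicle libraries as circles, rapamycin libraries as triangles, and the batch mean with its SD (n = 11 and n = 5) at the right. Cyp4f16, Cyp11a1, Cyp4f13 and Cyp4f17 lie higher in batch 2 and Cyp7b1 lower, with some overlap for each.

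The partners of the P450 enzymes were read from lists of genes. They are given in the edgeR fit of both sexes together, where 13.3% of all genes passed. Of 10 genes that supply electrons or help to, 9 were tested and 1 passed. This was Fdxr, the ferredoxin reductase of mitochondrial P450 enzymes, which rose by a log2 fold change of 0.45 ± 0.12 (adjusted p 0.0242). Fdx1, which hands on its electrons, had 0.37 ± 0.13 (adjusted p 0.0578), and Por, the reductase of the other P450 enzymes, 0.08 ± 0.08 (adjusted p 0.523). The median of the list was 0.19. Of 19 regulators 17 were tested and 1 passed, Ahr, the aryl hydrocarbon receptor, which fell by 0.37 on the log2 scale (SE 0.10, adjusted p 0.0274), while its target Cyp1b1 did not pass. The liver receptors Nr1i2 and Nr1i3, which drive Cyp3a and Cyp2b genes there, reached at most 0.286 and 0.218 CPM.

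In the same edgeR fit, where 13.3% of all genes passed, 0 of 9 tested genes of 11 for fatty acid oxides did. Ephx2, a hydrolase of fatty acid epoxides, had 0.25 ± 0.12 (adjusted p 0.157). Of 9 tested genes of 10 for retinoids 0 passed, and Stra6, the retinol transporter, had −0.47 ± 0.17 (adjusted p 0.0685). Of 6 tested genes of 8 for oxysterols Sult2b1, which sulfates them, rose by 0.46 ± 0.11 (adjusted p 0.0201). Of 7 tested genes of 10 for neurosteroids Hsd17b10, a mitochondrial dehydrogenase, rose by 0.38 ± 0.11 (adjusted p 0.0388). The P450 enzymes outside the naming rule, Cyp51 of cholesterol synthesis, Tbxas1 and Ptgis, had −0.01 ± 0.07, −0.40 ± 0.23 and −0.42 ± 0.20, and none passed.

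The other 74 P450 names fell short of the rule, and 34 of them had 0 counts in all 16 libraries, which allows up to 3 counts, or 0.183 CPM, in the smallest library. Counting error alone is covered by this limit. Among them were Cyp7a1, the rate-limiting enzyme of bile acid synthesis, 7 of the 9 Cyp3a names and 9 of the 15 Cyp2c names. Cyp19a1, the aromatase that makes estradiol, had 23 counts in total, at most 7 in a library. The highest totals were those of Cyp4f18 with 95 counts, the retinoic acid hydroxylase Cyp26a1 with 80 and the ethanol oxidase Cyp2e1 with 78. With no filter on low counts 40 of these genes could be fitted. In the fit of both sexes together 2 of them passed, Cyp2a5 and Cyp2g1, where 8.68% of all genes did. Female rapamycin 2 held 47 of the 61 counts of Cyp2a5 and all 18 of Cyp2g1.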

How the data were processed

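The authors deposited raw read pair counts per gene for 16 cortex libraries, with no normalization, and the same counts again by group (0 cells differed). The authors had trimmed 150 bp paired reads with Trimmomatic 0.39, removing the first 10 bases, aligned them with HISAT2 2.2.1 to GRCm38 (mm10) and counted them on exons of Ensembl genes with featureCounts 2.0.3. Strand was ignored, and pairs with several alignments or several genes were not counted, which takes reads from near-identical genes. The exon length per gene in the same table was used for levels per kilobase, and CPM values use the TMM factors.

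Counts of all genes were fitted in R 4.3.3 with edgeR 4.0.16, TMM factors and filterByExpr (minimum count 10), which kept 16553 genes. The quasi-likelihood test had terms for sex, batch and treatment, or for the 4 groups and batch where sexes were taken apart, over all 16 libraries. The p values were adjusted by the Benjamini-Hochberg method over the whole table, a gene passed under 0.05, and a DEG also had a fold change of at least 1.5. DESeq2 1.42.0 was an alternative, as were other scalings, no filter, covariates, a replicate block and leaving out libraries. Intervals of 95% are the estimate with 1.96 SE either way.

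The 26 genes, the gene lists, the motifs and the tests were chosen with earlier results of these data known. Every gene of the 26 could be named. Values in every library, or by lowest, median and highest library, are given for those that passed for the diet or the batch and for the sterol and steroid enzymes. Cyp2s1 and Cyp2j12 were added after their values were seen. The pairing of replicate numbers was checked by the correlation of deviations from the group means, and did not meet the rule for a paired design. Figures were drawn with Python 3.11.15 and matplotlib 3.10.9. The description of the mouse model is not complete, since 1 item is not reported here.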

Additional observations from a re-analysis of the deposited data

Results flagged for a closer look

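Among 104 sets of 4 libraries (26 P450 genes in 4 groups), 6 held a library far from the other 3 of its group, and chance flags about 1 group in 20. Cyp2d22 in male vehicle 2 was at 26.3 CPM where the other 3 were at 30.0 to 30.6, and Cyp2s1 in male vehicle 1 was at 6.30 CPM where the others were at 7.33 to 7.49. Cyp2t4 in female vehicle 4 was at 2.71 CPM where the others were at 1.13 to 1.37. Cyp3a13 reached 1.45 CPM in male vehicle 4, with the others at 0.173 to 0.297, and 1.90 CPM in male rapamycin 2, with the others at 0.309 to 0.362. Cyp4f13 in male vehicle 4, a batch 2 library, was at 10.6 CPM where the others were at 5.83 to 6.36.

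Outside the 26 genes, a single library held most reads of a pair of P450 genes, Cyp2a5 and Cyp2g1. Cyp2a5 had 47 counts in female rapamycin 2 (95% Poisson interval 34.5 to 62.5, counting error only) of 61 counts in all, with at most 3 in a vehicle library and 5 in any other. Cyp2g1 had 18 counts in female rapamycin 2 (10.7 to 28.4), which were all its counts.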

How the results depend on the processing

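Of the 26 genes, 4 passed with both sexes together in edgeR, as did 13.3% of all genes. That number was 2 with no batch term (0.858% of all genes), 0 with batch 2 libraries only (0.017%), 0 with the mitochondrial share or with the slope on exon length as a covariate (0%), 3 with batch 1 libraries only (7.45%), 2 without male rapamycin 4 and male vehicle 4 together (6.22%, chosen after seeing the data), and 2 to 5 when single libraries were left out (4.26% to 20%). Cyp4f15 and Cyp2d22 passed in all 16 of those fits, Cyp2j9 in 4 and Cyp26b1 in 6. In females the number was 0, but 3 with DESeq2 (10.4% of all genes), 4 with no filter on low counts (5.55%) and 2 with batch 1 libraries only (7.75%). It was 0 to 2 with single libraries left out (0.00592% to 12.6%). In males it was 0, but 2 with no filter (1.74%). For the interaction and for females against males it was 0 in every fit run, where at most 0.288% and 0.476% of all genes passed. Between batches it was 5 (35.5%), but 3 without male rapamycin 4 and male vehicle 4 together (29.3%), and 3 to 6 with single libraries left out (25.4% to 36.8%). The cause of these moves was not tested. The log2 fold change of Cyp46a1 reversed to −0.047 with batch 2 libraries only and to −0.11 with the slope on exon length. The rule found 31 genes at a minimum of 5 counts and 23 at 20. The median log2 fold change of the genes kept its direction under RLE and upper quartile factors.

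Same-numbered libraries of a sex correlated by −0.16 to 0.67 in their deviations, over 0.1 in 6 of 7 pairs, and 10 of 14 libraries correlated best with their own number, a hint from the data and not the design. Libraries of the same sex and number were also of the same batch, which was not taken out of the deviations. The highest value of each sex, 0.67 in females and 0.35 in males, was in batch 2. The part of batch in these values was not tested. With the replicate block 3 of 26 genes and 4.33% of all genes passed with both sexes together. Cyp2j9 lost its call there, at a log2 fold change of 0.41 and an adjusted p of 0.0790. In females, in males and in the interaction 0 of 26 passed, where 0.0121%, 0% and 0% of all genes did. Few counts limited Cyp4b1, Cyp3a13, Cyp2r1 and Cyp4x1os.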
